A study of Mus musculus with 2 samples.

Results

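The cells described here are the 79 cells that the deposited clustering placed in cluster 13 (C13) and that the deposited SingleR annotation called DC. They were 79 of 24343 cells in all, 45 from the WT and 34 from the Batf3-/- library, and were chosen by those 2 columns alone. The study profiled spleen cells of 8-week-old female C57BL/6 mice, either WT or Batf3-/-, by CITE-seq, in which mRNA and DNA-tagged surface antibodies are counted cell by cell. Spleens of several mice were pooled for each genotype, T and B cells were depleted with antibodies on beads, and live single MHCII+ CD11c+ cells were sorted. No antibody to NK cells, some of which carry CD11c, was used in the depletion. The deletion is present in all cells of the Batf3-/- mice, not in DCs alone. With 1 library per genotype there is no replicate, so no difference below carries a p-value; libraries, not cells, would be the replicates.

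Conventional DCs (cDCs) take up antigen and present it on MHC class II, with Flt3 as their growth factor receptor and the transactivator Ciita driving their class II genes. Plasmacytoid DCs (pDCs) are type I interferon producers that depend on the transcription factor Tcf4 and carry Siglec H and Bst2 on their surface. T cells are defined by the CD3 chains of the antigen receptor complex, and NK cells by receptors such as NKp46, encoded by Ncr1, and by cytotoxic granule proteins. Cluster 13 was the cluster of these lymphocytes, so DC-labelled cells within it raise the question of which of these identities they carry.

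The 79 cells were set against 3 groups. The first were the 225 DC-labelled cells of cluster 14, which are the pDCs. The second were the other 308 cells of C13, most of them labelled ILC, NK cells or T cells. The third were 22346 cDCs, the DC-labelled cells of clusters 0 to 12 and 16 to 18. Levels are unique molecular identifiers (UMIs) of a gene summed over a group per 1000000 of all its UMIs (CPM), and ratios are log2 of 2 such levels. All intervals are exact 95% intervals and cover counting error only. Clusters and labels were drawn from the same transcripts, so transcript levels describe the cells and do not test their identity; the antibody tags were not used by either.

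Batf3 was at 206 CPM over all WT cells and at 2.49 CPM over all Batf3-/- cells, which matches the labels. The libraries held 12224 and 12119 cells with medians of 8374.5 and 8516 UMIs per cell. They shared 56 barcode sequences, of which 1 belonged to a DC-labelled C13 cell. Siglech was detected in 224 of the 225 pDCs, H2-Aa in 22146 of the cDCs and Lck in 246 of the other 308 C13 cells, so the 3 reference groups carried markers of their names. Detection of class II alone does not mark cDCs, since 99.7% of the other C13 cells also held a UMI of a class II list gene. The groups were drawn from these transcripts, so this is no test of them.

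The DC-labelled C13 cells were the deepest of the 4 groups. Their median was 11740 UMIs, from 4457 to 27987 in single cells, against 8467.5 in cDCs, 8796 in pDCs and 4406 in the other C13 cells. The medians were 11427 in the WT and 12666 in the Batf3-/- library. They held a median of 3256 genes per cell, against 2460, 2687 and 1631.5. After each cell was thinned to 2000 UMIs the medians were 972 genes in the DC-labelled C13 cells, 929 in cDCs, 983.5 in pDCs and 963 in the other C13 cells, and the interquartile range of the DC-labelled C13 cells (933.5 to 1018) overlapped those of all 3 groups; 9 other C13 cells, 1 pDC and 914 cDCs were too shallow and left out, and 4000 of the remaining cDCs were drawn at random.

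Scrublet, which scores each cell against simulated sums of 2 cells of the same library, marked 34 of the 45 WT and 4 of the 34 Batf3-/- cells as doublets at an expected rate of 0.1. It marked 462 of 11169 WT and 224 of 11177 Batf3-/- cDCs, 7 of 196 and 0 of 112 other C13 cells, and 24 of 132 and 13 of 93 pDCs. The median doublet score was 0.418 in the WT and 0.284 in the Batf3-/- DC-labelled C13 cells, against 0.0715 and 0.0901 in cDCs, and 0.0715 and 0.121 in the other C13 cells. The scores of the DC-labelled C13 cells were thus the highest of the 4 groups in either library, although few of the Batf3-/- cells passed the threshold for a call. At an expected rate of 0.05 it marked 30 of the WT cells and, in the whole Batf3-/- library, none. The part that depth and these scores have in the results below was not tested. Values without the marked cells, which leave 41 of the 79, are given where they were computed. Other results were not recomputed without them. Unmarked Batf3-/- cells had scores up to 0.397, whereas a WT cell was marked at 0.344. Leaving out the marked cells therefore does not leave a set free of high scores, least of all in the Batf3-/- library.

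DC-labelled C13 cells made up 0.368% of the WT library (45 of 12224 cells, exact Clopper-Pearson interval 0.269 to 0.492%) and 0.281% of the Batf3-/- library (34 of 12119 cells, 0.194 to 0.392%). Without the cells marked by Scrublet, which scores each library by itself, the shares were 0.0942% (0.0470 to 0.168%) and 0.253% (0.171 to 0.360%). With 1 library per genotype, neither order is a difference between genotypes. Of the C13 cells, they were 18.7% in the WT and 23.3% in the Batf3-/- library. The finer SingleR label of 65 of the 79 cells was an ImmGen DC population without CD8, CD4 and CD11b; that of 5 was a CD8+ DC population.

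The genes that define pDCs were far lower in these cells than in pDCs. Siglech (chromosome 7, 55768178 to 55778925, GRCm38), the pDC lectin receptor, was at 3.96 CPM (1.08 to 10.1), with 1 UMI in each of 4 cells, against 2018 CPM in pDCs. Klk1, a kallikrein protease, was at 1.98 against 1098 CPM. Ly6d was at 30.7 against 3889 CPM, with 21 of its UMIs in 1 cell, and was at 0 in the Batf3-/- cells (up to 6.73 CPM by the 3 counts that a 0 allows). Bst2, a surface protein that tethers budding virus, was at 159 against 3888 CPM, and Tcf4, the pDC transcription factor, at 102 against 1407 CPM. Bst2 and Tcf4 stood at 164 and 122 CPM in cDCs, so both genes were near their cDC levels. Ctsl, a lysosomal protease, was at 8.92 against 1774 CPM, and Irf8, which cDC1 cells also need, at 332 against 2963 CPM.

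The 26 genes of the pDC list summed to 2498 CPM (2402 to 2598) in the DC-labelled C13 cells, against 27728 CPM in pDCs, 3079 CPM in cDCs and 1392 CPM in the other C13 cells. The log2 ratio to pDCs was -3.47 (-3.53 to -3.41), with -3.45 in the WT and -3.50 in the Batf3-/- library, and -3.62 over both without the cells marked by Scrublet. The ratio to cDCs was -0.30 (-0.36 to -0.25).

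MHC class II genes were near the levels of cDCs and pDCs and far above the other C13 cells. The 10 genes of the list summed to 35658 CPM (35291 to 36029), against 47493 CPM in cDCs, 30521 CPM in pDCs and 8032 CPM in the other C13 cells. In the WT and Batf3-/- cells the sums were 35579 and 35759 CPM, so they differed little between genotypes. The log2 ratio to cDCs was -0.41 (-0.43 to -0.40), or -0.45 without the cells marked by Scrublet, and that to the other C13 cells was 2.15 (2.12 to 2.18). All 10 genes passed the limit of an average of 50 CPM over the groups compared. All 10 were at least 2-fold higher than in the other C13 cells in both libraries, where 4.91% of all 2831 genes compared were higher and 2.47% lower. None of the 10 was 2-fold apart from cDCs, where 1.8% of 2716 genes were at least 2-fold higher and 0.442% lower in both libraries. Against pDCs 1 of the 10 was higher and none lower, where 5.39% of 2821 genes were higher and 8.15% lower.

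By gene, H2-Aa, an alpha chain of class II, was at 6179 CPM against 8272 in cDCs and 1421 in the other C13 cells. Cd74, the invariant chain that guides class II to the endosome, was at 13875 CPM against 18701 and 3301 CPM. Ciita was at 334 CPM against 417 and 55.0 CPM. The median cell held 431 UMIs of the list, against 415 in cDCs and 7 in the other C13 cells.

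Flt3 and Cst3 held the same order. Flt3 was at 124 CPM in the DC-labelled C13 cells, 139 in cDCs and 16.0 in the other C13 cells. Cst3, which encodes the protease inhibitor cystatin C, was at 3869, 7819 and 478 CPM, and differed by library, with 5532 CPM in the WT and 1764 CPM in the Batf3-/- cells; cDCs showed the same order, with 11216 and 4164 CPM. Among the 10 highest ratios to the other C13 cells were also Pkib (103 against 4.73 CPM), an inhibitor of protein kinase A, Ifitm6 (192 against 16.0 CPM), Cd300a (150 against 14.2 CPM), an inhibitory receptor of myeloid cells, Ffar2 (157 against 17.1 CPM), a receptor of short-chain fatty acids, Dnase1l3 (299 against 34.3 CPM), a secreted DNase, and the cyclin Ccnd1 (681 against 80.4 CPM). Of these, Ifitm6 and Cd300a were at 202 and 157 CPM in cDCs. The core DC list summed to 7503 CPM in the WT and 3549 CPM in the Batf3-/- cells, with log2 ratios to the other C13 cells of 2.42 and 1.41 and to cDCs of -0.88 and -0.89. The median cell held 43 and 41 UMIs of that list, and the richest 702 and 224. The summed gap between the libraries was thus not seen in the median cell. The DC transcription factor list summed to 2575 CPM, against 3289 in cDCs and 1758 in the other C13 cells.

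The same cell barcodes carried lymphocyte genes that cDCs lack. Gzma (chromosome 13, 113093825 to 113100981, GRCm38), a granzyme of cytotoxic cells, was at 905 CPM (847 to 965), against 0.332 CPM in cDCs and 2033 CPM in the other C13 cells, with UMIs in 21 of the 79 cells. Nkg7, a granule protein, was at 428 CPM against 0.273 and 1220 CPM. Ncr1 (chromosome 7, 4337724 to 4345164) was at 110 CPM against 0.109 and 346 CPM. Xcl1, the chemokine that attracts XCR1+ cDC1 cells, was at 411 CPM against 0.991 and 767 CPM, and Il2rb, a receptor chain for IL-2 and IL-15, at 143 CPM against 0.186 and 423 CPM. Each of these 5 genes stood between the cDCs and the other C13 cells, and each was present in both libraries. Gzma was at 891 CPM in the WT and 923 CPM in the Batf3-/- cells, and Ncr1 at 103 and 119 CPM. In pDCs no UMI of Gzma, Nkg7 or Il2rb was counted, so that Gzma was at least 699-fold and Nkg7 at least 331-fold higher in the DC-labelled C13 cells, by the 3 counts a 0 allows.

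The T cell genes held the same order. Cd3d, Cd3g and Cd3e lie side by side on chromosome 9 (44969572 to 45009627, GRCm38) and encode the CD3 chains. Cd3d was at 205 CPM (178 to 235) against 1.05 CPM in cDCs and 439 CPM in the other C13 cells. Cd3g was at 191 CPM against 0.396 and 426 CPM, and Cd3e at 63.4 CPM against 0.5 and 106 CPM. Lck, the kinase that starts T cell receptor signalling and is also found in NK cells, was at 160 CPM against 0.532 and 374 CPM, and was the most widely detected, in 59 of the 79 cells. Il7r, the IL-7 receptor of T cells and ILCs, was at 130 CPM against 15.6 and 388 CPM, and Tcf7 at 134 CPM against 26.1 and 245 CPM. The constant genes of the T cell receptor chains were not analysed here. Of 23 genes listed for T cells, 19 were among the deposited counts and entered the sums below.

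Summed over the 67 genes of the T cell, NK cell and ILC lists, the level was 10064 CPM (9869 to 10262) in the DC-labelled C13 cells, 20863 in the other C13 cells, 3904 in cDCs and 2925 in pDCs. The log2 ratio to the other C13 cells was -1.05 (-1.08 to -1.02), and -1.15 without the cells marked by Scrublet. The ratio to cDCs was 1.37, with 1.62 in the WT and 1.15 in the Batf3-/- library. The NK cell, T cell and ILC lists alone summed to 5708, 1275 and 3081 CPM, against 1183, 64.3 and 2657 CPM in cDCs and 13995, 2673 and 4195 CPM in the other C13 cells. Of the NK cell list, the chemokine gene Ccl5 made up 2032 CPM in the DC-labelled C13 cells, 833 in cDCs and 5174 in the other C13 cells. Most of the NK cell list sum of cDCs was thus Ccl5. The log2 ratio of the ILC list to cDCs was 0.44 in the WT but 0.04 (-0.03 to 0.12) in the Batf3-/- library. Among the lowest ratios to the other C13 cells were Prss2 (19.8 against 148 CPM), the Ly49 family NK receptor genes Klra8 (33.7 against 231 CPM) and Klra3 (24.8 against 131 CPM), Cd160 (63.4 against 333 CPM) and Ly6d. Per cell rather than as a share of its UMIs, the lists gave a median of 105 UMIs in the DC-labelled C13 cells and 100 UMIs in the other C13 cells. By list these medians differed, at 27 against 53.5 for NK cells, 38 against 13 for ILCs and 15 against 10 for T cells. The ILC list shares Tmem176a, Tmem176b, Cd7, Ltb and Id2 with the cDC1 and cDC2 lists. Its median was 22 UMIs in cDCs, so the joint medians do not measure lymphocyte genes alone.

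**Figure D1:**
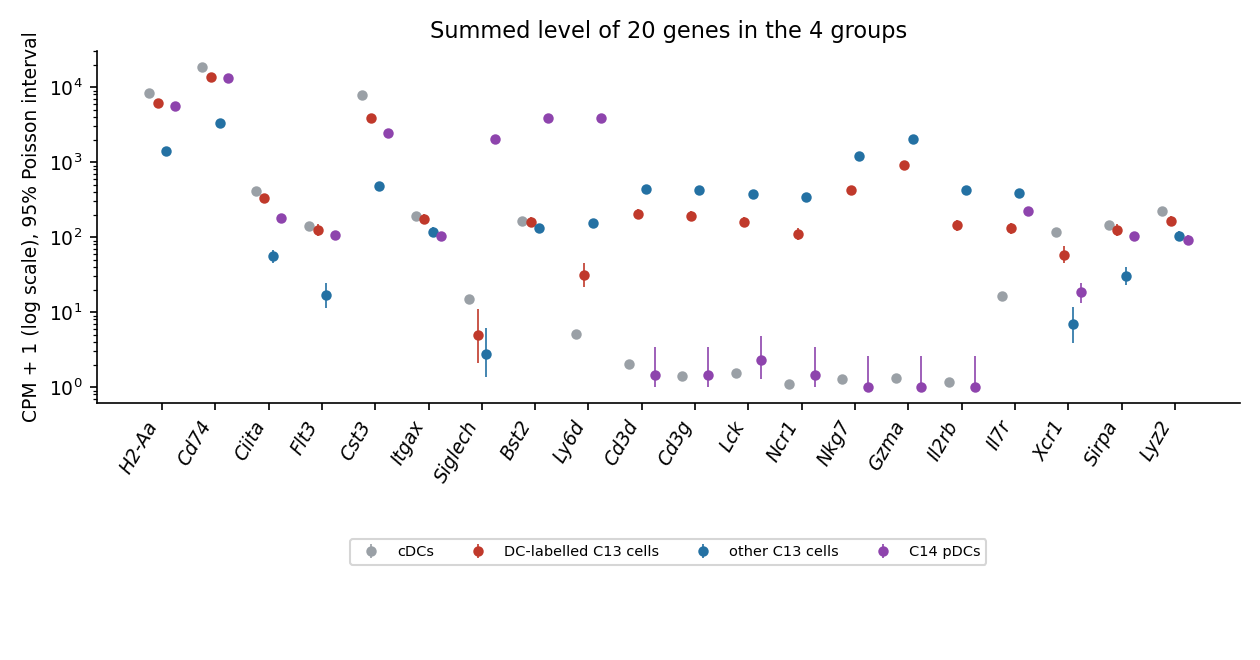
Summed level of 20 genes (CPM + 1, log scale; bars are exact 95% Poisson intervals) in cDCs, DC-labelled C13 cells, other C13 cells and C14 pDCs. The DC-labelled C13 cells sit near cDCs for H2-Aa, Cd74, Ciita and Flt3, between cDCs and the other C13 cells for Cd3d, Cd3g, Lck, Ncr1, Nkg7, Gzma and Il2rb, and far below pDCs for Siglech, Bst2 and Ly6d.

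Over the pooled libraries, nearly every gene that told cDCs from the other C13 cells was at an intermediate level in the DC-labelled C13 cells. These cells were chosen for a DC label within a lymphocyte cluster, so levels between those groups are a description and no test. For a gene near 0 in cDCs, such as Ncr1 at 0.109 CPM, a few UMIs place the cells above cDCs. The same shares were not computed for pDCs or for all genes. Of 171 genes at least 2-fold higher in the other C13 cells than in cDCs in both libraries, 166 were between the 2 groups in both libraries, and all 171 over the pooled libraries. Of 234 genes at least 2-fold higher in cDCs, 193 were between in both libraries and 228 pooled. On a linear scale of CPM, 0 was set at the level in cDCs and 1 at that in the other C13 cells. The median gene of the first set stood at 0.383 (quartiles 0.316 and 0.462) and that of the second at 0.307 (0.229 and 0.428). On that scale the 2 sets stood at similar places, nearer to cDCs than to the other C13 cells. As log2 ratios, the T cell and NK cell lists stood nearer to the other C13 cells (-1.07 and -1.29) than to cDCs (4.31 and 2.27). The ILC list did not (-0.45 and 0.21). Without the cells marked by Scrublet in any group, 147 of 175 and 169 of 238 such genes were between in both libraries, 173 and 221 pooled, with medians of 0.332 and 0.313.

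By the limits used here, no gene set the cells apart from both groups on the high side. None of 2783 genes compared was at least 2-fold above both cDCs and the other C13 cells in both libraries, and none exceeded by 1.5-fold the highest level among the single cDC clusters and C13 labels. Without a fold limit, 4 genes (Eif4ebp2, Dcun1d5, Ctdnep1 and Ik) were above that highest level over the pooled libraries. H2afx, a histone variant of the DNA damage response, was at least 2-fold below both, at 30.7 CPM against 116 in cDCs and 84.5 in the other C13 cells. Among the lowest ratios to cDCs were also Pclaf (40.6 against 138 CPM), Birc5 (22.8 against 81.1 CPM) and Top2a (39.6 against 106 CPM), which dividing cells carry, and the chemokine gene Cxcl9 (23.8 against 151 CPM). Wfdc17, chosen after its values were seen, was at 104 CPM over the pooled libraries, against 51.8 in cDCs and 22.5 in the other C13 cells, with UMIs in 20 of the 79 cells.

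**Figure D2:**
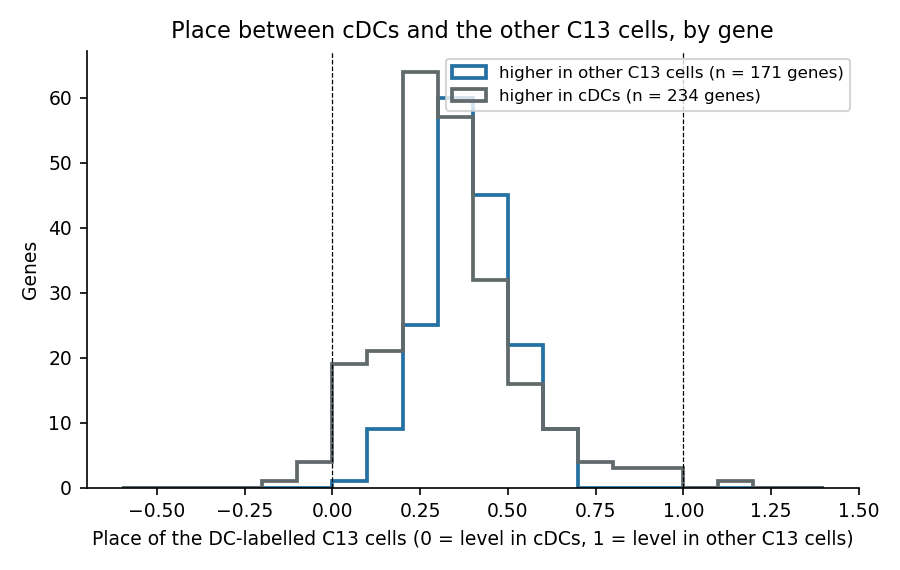
Number of genes by the place of the DC-labelled C13 cells between cDCs (0) and the other C13 cells (1) on a linear scale of CPM, for 171 genes higher in the other C13 cells and 234 genes higher in cDCs. Both distributions lie mostly between 0 and 1, with medians of 0.383 and 0.307.

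Both kinds of transcript were counted under the same cell barcodes. The label DC alone thus does not describe most of these cells. All 79 are called DC-labelled C13 cells here. Whether each barcode held 1 cell or 2 was not tested. Cells were counted as carrying CD3 genes when Cd3d, Cd3e and Cd3g together gave at least 3 UMIs, and as carrying NK genes when Ncr1, Klrb1c, Klre1, Gzma and Nkg7 together did; these 2 sets and this limit were chosen after the values were seen. Of the 79 cells, 31 carried CD3 genes alone, 26 NK genes alone, 14 both and 8 neither. Together 71 of 79 cells (89.9%, 81.0 to 95.5%) carried 1 or both, against 28 of 22346 cDCs (0.125%, 0.0833 to 0.181%), 0 of 225 pDCs (up to 1.63%) and 282 of 308 other C13 cells (91.6%). Without the cells marked by Scrublet the share was 87.8% of 41 cells. At a limit of 10 UMIs it was 58.2%.

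The class II level of each cell was compared with the lowest 5% of cDCs of its own library. In 77 of the 79 cells (97.5%) it was above that limit, as it was in 42 of the 308 other C13 cells (13.6%) and 207 of the 225 pDCs (92.0%). Both conditions held in 69 of the 79 cells (87.3%, 78.0 to 93.8%), 28 of 308 other C13 cells (9.09%) and 24 of 22346 cDCs (0.107%). The 2 cells under the limit had 2371 and 5606 class II CPM, the first in the Batf3-/- and the second in the WT library.

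**Figure D3:**
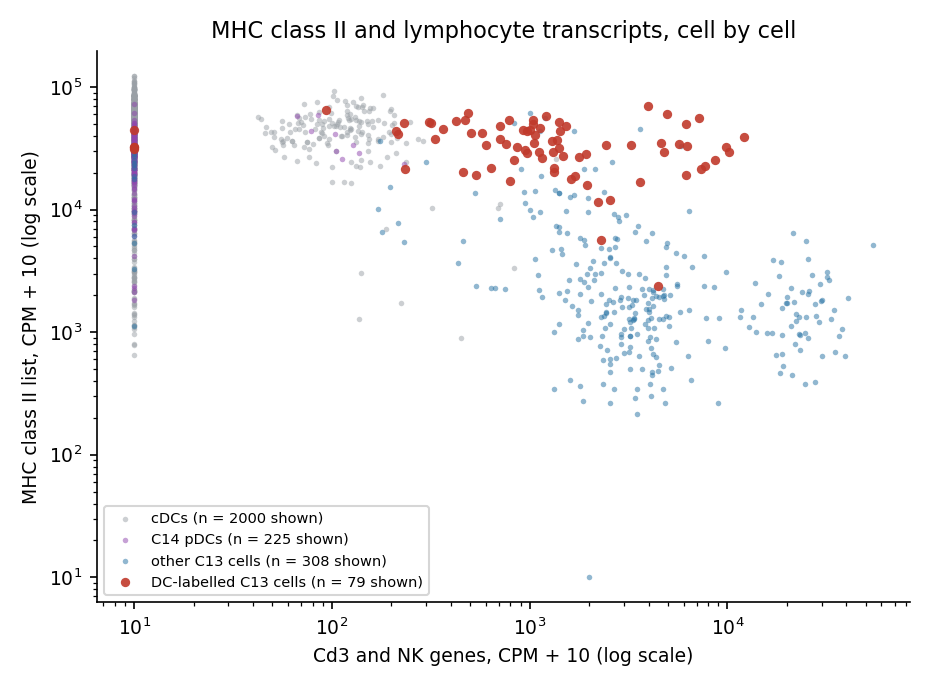
MHC class II list against the summed CD3 and NK genes in single cells (CPM + 10, both axes log scale), for all 79 DC-labelled C13 cells, 225 C14 pDCs, 308 other C13 cells and 2000 cDCs drawn at random. Most DC-labelled C13 cells are level with cDCs on the vertical axis and to the right of them on the horizontal axis.

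The CD3 and NK genes tended to be in different cells. The 31 cells with CD3 genes alone had a median of 9 CD3 and 0 NK UMIs and a median total of 12901 UMIs. The 26 cells with NK genes alone had a median of 50.5 NK and 0 CD3 UMIs and a median total of 10414 UMIs. The 14 cells with both had medians of 8.5 and 11 UMIs. The median class II level was 41598 CPM in the first, 32693 in the second and 27816 CPM in the third set. Cells of both genotypes were found in each set, with 15 WT and 16 Batf3-/- cells in the first, 13 and 13 in the second and 10 and 4 in the third.

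The number of these UMIs per cell was close to that in the other C13 cells, although the totals were not. Where CD3 genes were carried, the median was 9 UMIs (quartiles 6 and 12) in 45 DC-labelled C13 cells and 10 UMIs (7 and 14) in 154 other C13 cells, with median totals of 12876 and 4347 UMIs. Where NK genes were carried, it was 25.5 UMIs (9.75 and 60.3) in 40 and 18 UMIs (8 and 52.5) in 207 cells, with totals of 11344 and 4711 UMIs. The same other C13 cells held medians of 6 and 7 class II UMIs, against 482 and 373.5 in the DC-labelled C13 cells. By label, carriers of NK genes had a median of 30 such UMIs in 153 NK cells and ILCs and 4.5 in 50 T and NKT cells. Carriers of CD3 genes had 11 in 119 T and NKT cells and 7 in 32 NK cells and ILCs. All these cells had at least 3 UMIs of the set by definition, which limits how far medians can differ. After thinning to 1000 UMIs per cell, which left out no cell, 26.6% of the DC-labelled C13 cells and 45.5% of the other C13 cells had a CD3 UMI, against 0.150% of 2000 cells of C0, a cDC2 cluster with a median of 6842.5 UMIs that should lack these genes. Unthinned, the shares were 62.0%, 53.9% and 1.00%. For the NK genes the shares were 34.2%, 60.7% and 0.400% thinned and 68.4%, 77.3% and 5.90% unthinned. The order of the first 2 groups thus turned with depth for the CD3 genes and not for the NK genes, and both groups were above C0 for either set.

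**Figure D4:**
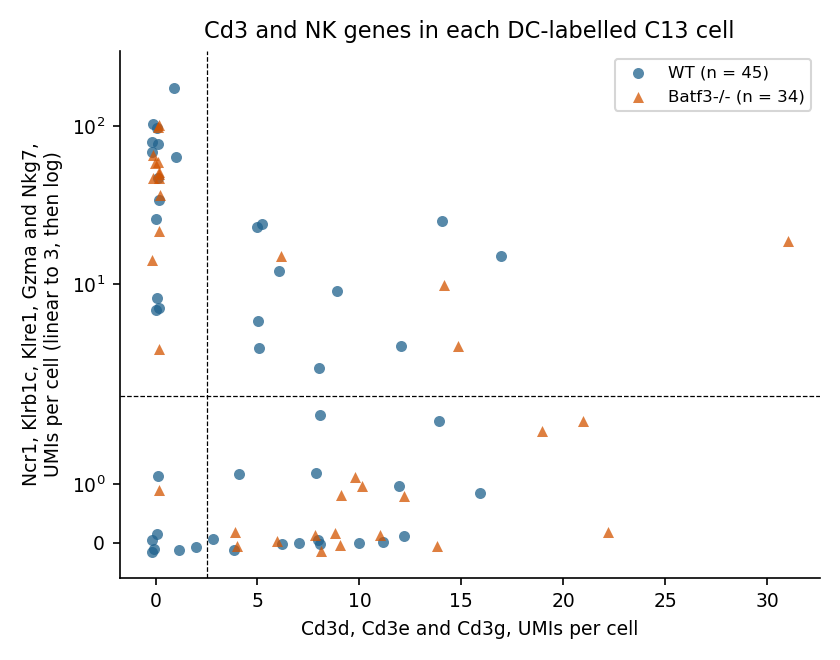
UMIs of Cd3d, Cd3e and Cd3g against UMIs of Ncr1, Klrb1c, Klre1, Gzma and Nkg7 in each of the 79 cells (points spread slightly to show overlaps; dashed lines mark the limit of 3 UMIs). Of the cells, 31 lie at the lower right, 26 at the upper left, 14 at the upper right and 8 at the lower left.

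Among the 8 cells with neither, 3 WT cells carried Cd79a, a chain of the B cell receptor, and no other of the 79 cells had a UMI of it. Of these, 1 also held 2083 UMIs of Jchain, the joining chain of secreted antibodies, out of 2086 in all 79 cells. Cd79a was at 29.7 CPM over the 79 cells, against 0.186 CPM in cDCs and 60.3 CPM in the other C13 cells. The plasma cell list, which holds Jchain, was at 3889 CPM in the WT and 87.5 CPM in the Batf3-/- cells. Of 13 genes listed for plasma cells 9 were among the deposited counts, and of 23 listed for B cells 18 were. These 18 genes of the B cell list summed to 390 CPM against 276 in cDCs, a log2 ratio of 0.50 (0.35 to 0.64). It was 0.98 in the WT and 0.0047 (-0.24 to 0.24) in the Batf3-/- library. The list was at 431 and 339 CPM in the DC-labelled C13 cells and at 219 and 338 CPM in cDCs. The higher WT ratio thus came also from the lower level in WT cDCs. In pDCs the B cell list was at 678 CPM, so its sum does not mark B cells alone.

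Genes of the cDC subsets were carried by different cells too. Cells of the cDC1 subset cross-present antigen to cytotoxic T cells, need Batf3 and carry Xcr1, Clec9a and Cadm1, whereas cDC2 cells carry Sirpa. In 5 cells, all WT, Xcr1, Clec9a, Cadm1, Naaa and Tlr3 gave 39 to 75 UMIs together, and these were the 5 cells with a CD8+ DC label. Of them 3 carried NK genes alone, 1 CD3 genes alone and 1 both. Among the Batf3-/- cells the highest sum was 3 UMIs, and it reached 20 in 9 of 11177 Batf3-/- cDCs and in 2517 of 11169 WT cDCs. Xcr1 was at 99.4 CPM in the WT and 4.49 CPM in the Batf3-/- cells.

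Sirpa was at 124 CPM in the DC-labelled C13 cells, against 146 in cDCs and 29.6 in the other C13 cells, and was detected in 56 of the 79 cells. Cd209a, a lectin of cDC2 cells, was at 186 CPM against 111 and 47.9 CPM, with 105 CPM in the WT and 290 CPM in the Batf3-/- cells. The cDC2 list summed to 2662 CPM against 2472 in cDCs, with a log2 ratio of 0.35 in the WT and -0.03 (-0.11 to 0.04) in the Batf3-/- library. It summed to 2570 CPM in the other C13 cells, a log2 ratio of 0.05 (-0.02 to 0.12). Cd7, also on the list, was lower than in the other C13 cells, at 387 against 794 CPM. Per cell the list gave a median of 31 UMIs against 7. Sirpa, Cd209a, Clec4a4, Clec10a and Esam gave at least 3 UMIs together in 43 of the 79 and in 10 of the 308 cells. That limit was also met by 168 of 225 pDCs and by 9706 of 22346 cDCs, so it does not mark cDC2 cells. These per-cell counts were not thinned, and the median depths were 11740 and 4406 UMIs. The cDC1 list summed to 2282 CPM against 4180 in cDCs in the WT, and to 747 against 1165 CPM in the Batf3-/- library. Over 124 genes at least 4-fold higher in pooled cDCs than in the other C13 cells, the profile of the DC-labelled C13 cells was closest to C2 (Pearson r = 0.938 across genes of log2 CPM + 10), with C11 next (r = 0.934). For the WT members alone C2 and C6 were nearly level (r = 0.898 and 0.896), and for the Batf3-/- members alone C5 was closest (r = 0.961). The genes, clusters and labels they were compared with were pooled over both libraries. Over 107 genes at least 4-fold higher in the other C13 cells, the profile was closest to the C13 cells labelled NK cells (r = 0.563). Those labelled ILC and Tgd followed at r = 0.440 and 0.434. After them came NKT, B cells and, last, T cells, at r = 0.418, 0.301 and 0.239. For the Batf3-/- members alone Tgd came before ILC (r = 0.627 and 0.549), and T cells before B cells (r = 0.388 and -0.0737). Genes are not independent replicates, so these values are a description.

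The monocyte and macrophage list summed to 615 CPM against 691 in cDCs, with Lyz2, the macrophage lysozyme, at 162 against 221 CPM. The neutrophil list was at 3.96 CPM, the basophil and mast cell list at 4.95 CPM, and the platelet and erythroid list at 106 against 122 CPM in cDCs. The progenitor list was at 421 CPM against 280 in cDCs and 720 in the other C13 cells, and the list of RORgt+ antigen-presenting cells at 364 against 489 and 69.7 CPM. The mature DC list was at 2902, 2313 and 5663 CPM, of which the chemokine gene Ccl5, which NK and T cells also carry, made up 2032, 833 and 5174 CPM in the DC-labelled C13 cells, cDCs and other C13 cells. Fscn1 and Cd83 of that list were at 47.6 and 108 CPM, against 120 and 240.0 CPM in cDCs. In the same order of groups, the list of transitional and precursor DCs at 966, 900 and 687 CPM, the interferon list at 1231, 976 and 907 CPM, and the immediate early and heat shock list at 8283, 8087 and 7760 CPM. The lymphoid transcription factor list was at 1571, 884 and 2866 CPM in the same order. The monocyte, progenitor, RORgt+, mature DC and lymphoid factor lists were thus between those of cDCs and the other C13 cells.

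In the deposited cell cycle phases, 17 of the 79 cells were in S and 7 in G2M (30.4% together), against 28.3% of cDCs, 38.0% of the other C13 cells and 5.78% of pDCs. The S gene list was at 642 CPM, against 870 in cDCs and 830 in the other C13 cells. The G2M list was at 1356 CPM in the WT and 642 CPM in the Batf3-/- cells, against 1621 and 1800 CPM in cDCs and 1136 and 1000.4 CPM in the other C13 cells. The part of free RNA in such calls was not tested.

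The antibody tag medians of the cells were mostly nearer to those of cDCs than of the other C13 cells. The 11 tag rows were not named in the files; a row was named only where its correlation with the transcript of 1 panel antibody was at least 0.2 and exceeded those of all other rows and of all other panel transcripts by 0.1 in both libraries, which gave CD4 and CD8A. The median count of the DC-labelled C13 cells was nearer to that of cDCs than to that of the other C13 cells for 9 of 11 tags, nearer to the other C13 cells for 1, and equally far for 1. On the centered log ratio scale the first count was 10, and as shares of a cell's tag counts it was 8. By library it was 9 in the WT and 11 in the Batf3-/- cells. Without the cells marked by Scrublet it was 10 over both libraries. The authors reported considerable background for every antibody, applied thresholds, and left out antibodies of unclear binding. No threshold was applied here and all 11 rows were kept. Some rows hardly differed: tag 6 had medians of 21, 22 and 20 in DC-labelled C13 cells, cDCs and other C13 cells. Tag 7 had 39, 40 and 39. Such rows count as much as the others.

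The widest separation was in tag 5, with a median of 75 counts (quartiles 55.5 and 90) in the DC-labelled C13 cells, 72 (53 and 95) in cDCs, 31 (25 and 43.3) in the other C13 cells and 47 in pDCs. Tag 4 gave 50 counts, against 43, 30 and 32. Tag 11 gave 68 counts, against 62, 49 and 57. By library, tag 5 was at 81 against 88 in cDCs in the WT and at 56.5 against 58 in the Batf3-/- cells, so that the pooled order did not hold in either. Tag 11 was at 72 against 70 and at 56 in both groups. Tag 4 was at 48 against 43 and at 52.5 against 42, above cDCs in both libraries. Total tag counts per cell moved with the groups as well, with medians of 493 in the DC-labelled C13 cells, 501 in cDCs, 381 in the other C13 cells and 506 in pDCs, and their part in these differences was not tested.

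CD4 tag counts had a median of 36 in the DC-labelled C13 cells, 34 in cDCs, 29 in the other C13 cells and 76 in pDCs. Within the 79 cells the 31 with CD3 genes alone had a median of 52 CD4 counts (quartiles 34 and 65.5) and the 26 with NK genes alone a median of 30 (24.3 and 35.8). The former was 52 in the WT and 48 in the Batf3-/- cells, the latter 25 and 33. The 14 cells with both had a median of 35, and the 8 with neither a median of 51, so high CD4 counts were also found without CD3 genes. The transcript went the same way, with UMIs of Cd4 in 15 of the 31 and in 5 of the 26 cells. It was also found in 4 of the 14 cells with both and in 4 of the 8 with neither, so it did not follow CD3 genes alone. Over all cells with CD3 genes, with or without NK genes, the median CD4 tag count was 43 in 45 DC-labelled C13 cells and 31 in 154 other C13 cells. CD4 is carried by helper T cells and by part of the splenic cDC2 cells. CD8A tags had a median of 42 in the cells with CD3 genes alone and of 43 in those with NK genes alone.

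**Figure D5:**
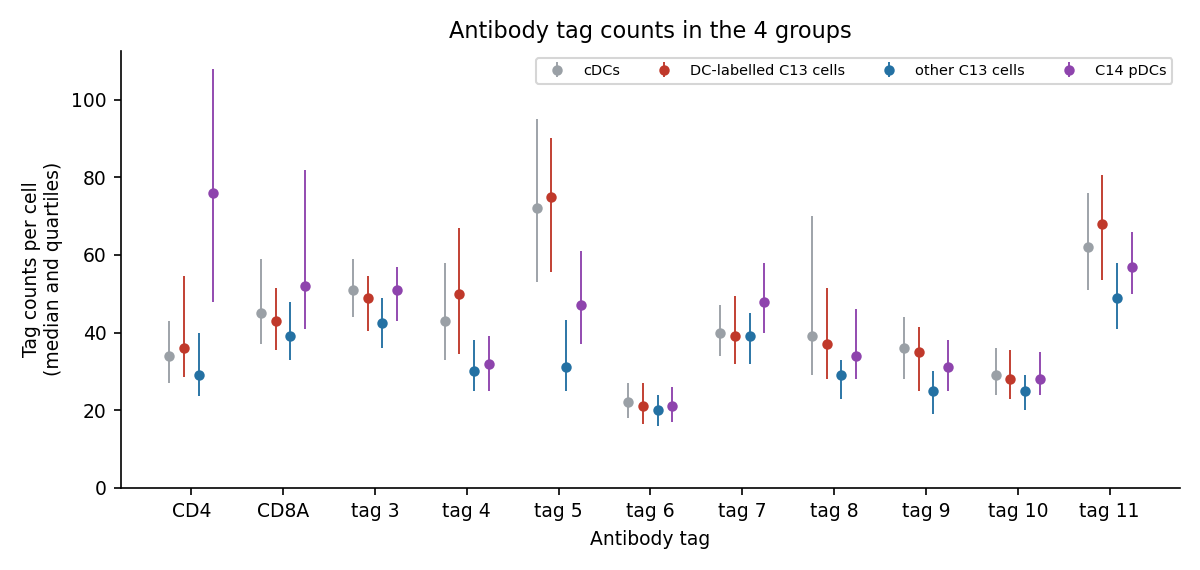
Median tag counts per cell with quartiles for the 11 antibody tags in cDCs, DC-labelled C13 cells, other C13 cells and C14 pDCs. The DC-labelled C13 cells lie close to cDCs in tags 4, 5, 8, 9 and 11, where the other C13 cells are lower.

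When the 387 cells of C13 were clustered anew on their own transcripts, 74 of the 79 cells (93.7%) fell into 1 of 7 groups, a group of 91 cells. The leading genes of that group against the rest of C13 were Ifitm3, Cd209a, Lyz2, Cd300a, Ifitm6, Ccnd1, Dnase1l3, Cybb, Plbd1 and Ms4a6c. The 17 further cells in it were labelled B cells (6), monocytes (6), NK cells (2), ILC (2) and Tgd (1). At a finer resolution of 1.0 the largest group held 38 of the 79 cells, with a median of 8 CD3 and 0 NK UMIs. A group of 15 had medians of 0 and 64, a group of 14 medians of 0 and 14.5, and a group of 7 medians of 9 and 4 UMIs. The groups of 38 and 7 cells also differed in class II, at medians of 42103 and 15746 CPM, and those of 14 and 15 in genotype, with 11 and 6 WT cells. The groups are a description, since they were drawn from the genes listed here.

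Between the genotypes, Batf3 was at 156 CPM in the WT cells, with UMIs in 35 of 45, and at 2.24 CPM in the Batf3-/- cells, with 1 UMI in 34 cells. The log2 ratio of Batf3-/- over WT was -6.12 (-11.44 to -3.60). Over 2802 genes that averaged 50 CPM and had 20 UMIs or more, the middle 90% of log2 ratios lay between -0.66 and 0.58. The highest were Ifitm1 at 2.41 (42.6 against 227 CPM in WT and Batf3-/-), with 25 UMIs in its richest cell and a ratio of 4.33 without the cells marked by Scrublet, Dhps at 1.70 and Eef2k at 1.47. The lowest besides Batf3 were Jchain, from the 1 cell named above, and Ube2c at -4.54, with 47 of its 61 UMIs in 1 cell. With 34 and 45 cells these extremes can rest on single cells.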

How the data were processed

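The authors aligned reads to GRCm38 (mm10) with Cell Ranger, aggregated the libraries with depth correction, and filtered and clustered cells in Seurat 3.0.5; the submitters' notes also name bcl2fastq 2.2.0. Doublet removal was not given in the sources used here. The deposited tables of raw counts give UMIs per gene and tag counts per antibody for each cell. Deposited metadata give mitochondrial and ribosomal shares as a fraction, cell cycle scores (score per cell), clusters and SingleR labels. The deposited tag values on a centered log ratio are on a natural log scale and served as an alternative; the deposited normalized RNA tables were not used. Each fold here is a ratio of counts computed from the deposited counts, not a deposited fold.

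Counts were summed over cells in Python 3.11.15 with numpy 2.4.6 and scipy 1.17.1. Scrublet and the clustering were run in scanpy 1.11.5. The Scrublet rate of 0.1 was chosen after calls at 0.05 had been seen. A ratio with 0 counts on a side used 3 counts there and is a bound. Genes were compared where both groups together averaged 50 CPM or more; ratios had to be at least 2-fold in both libraries to be counted. Named genes were the 10 highest and 10 lowest ratios with 1 sign in both libraries per comparison, list genes of at least 50 CPM and fixed defining markers; Clec9a, Cadm1, Naaa, Wfdc17, Klrb1c, Klre1, Clec4a4, Clec10a, Esam and Cd4 were chosen after their values were seen. The members and gene lists were chosen with earlier results of these data known. C13 was reclustered with the Leiden method (resolution 0.5) from 15 components of 1000 variable genes, with 15 neighbours. On counts simulated for 2662 genes at the depths of the DC-labelled C13 cells against cDCs, the intervals covered the true ratio of 96.5% of 200 changed genes. The simulated counts followed the Poisson model that the intervals assume. The coverage therefore checks the calculation and not the spread between cells.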

Additional observations from a re-analysis of the deposited data

Results flagged for a closer look

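Of the list sums, 4 differed in direction between the 2 libraries, each with an interval off 0 on both sides; with 1 library per genotype these differences were not tested. The cDC1 list of the DC-labelled C13 cells over the other C13 cells had a log2 ratio of 1.09 in the WT and -0.27 in the Batf3-/- library. The median DC-labelled C13 cell held 8 and 9 UMIs of it and the richest 220 and 31. The plasma cell list over pDCs was at 2.64 in the WT and -2.65 in the Batf3-/- library, with nearly all its WT counts from 1 cell rich in Jchain. The platelet and erythroid list over cDCs was at -0.89 and 1.36, from sums of 106 and 105.5 CPM in the cells themselves and of 197 and 41.0 CPM in cDCs. The G2M list over the other C13 cells was at 0.26 and -0.64.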

How the results depend on the processing

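No paired analysis was possible because each genotype has 1 library. Of the alternatives to values that answer a comparison, 36 stayed within the counting interval or within 1.5 times, 23 moved and none changed sign. The pDC list against pDCs was at -3.61 as a mean over cells and -3.62 without doublet calls. The lymphocyte lists against the other C13 cells were at -1.20 as a mean over cells, -1.12 on totals without ribosomal protein and mitochondrial genes, -1.15 without doublet calls, -1.09 in the WT and -0.996 in the Batf3-/- library alone. Class II against cDCs was, in the same order, at -0.38, -0.39, -0.45, -0.45 and -0.38. The B cell list against cDCs was at 0.98 in the WT and 0.0047 in the Batf3-/- library. The WT share of the library was 0.0942% without doublet calls; of C13, the shares were 18.7% and 23.3%. Genes at least 2-fold apart made up 13.5% against pDCs, 7.38% against the other C13 cells and 2.25% against cDCs; at 4-fold these were 4.47%, 1.17% and 0.994%, and without a filter the last was 4.72%. At resolution 1.0, 48.1% of the cells were in 1 group. At 10 UMIs, 58.2% carried CD3 or NK genes. The UMI limits, the counts of carriers, intermediate genes and tags without the marked cells, and the next were chosen after seeing the data: leaving out the cell rich in Jchain moved none of the 4 list ratios beyond its interval. Depth limits genes under about 3 CPM in the 79 cells, and differences between genotypes beyond single cells.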
